A study of Mus musculus with 10 samples.

Results

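The chromatin of regulatory T cells (Tregs) taken from the lung was set against that of Tregs taken from the spleen, with the genotype of the mouse held as a covariate, so that the tissue difference common to both genotypes was measured. All 10 libraries of the series entered the comparison, 4 from lung and 6 from spleen, over the 97109 of 97385 peaks that held enough counts to be tested. Cells were sorted as CD4+Foxp3-YFP+TCRb+ Tregs from 10-day-old perinatal mice. Controls carried Foxp3Cre with Pik3c3+/+ or Pik3c3+/fl (lung n = 2, spleen n = 2), and Vps34-deficient cells came from Foxp3Cre Pik3c3fl/fl mice (lung n = 2, spleen n = 4). All 4 groups therefore carried the Cre recombinase, which is expressed from Foxp3 and, in cells that express Foxp3, removes floxed Pik3c3, the gene of Vps34, a lipid kinase of autophagy and endosomal traffic. Lung tissue was cut and digested with collagenase and spleen was ground, so tissue of origin and preparation cannot be told apart. The labels do not say which libraries came from separate mice, and the p-values measure the spread between these libraries.

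Tregs restrain immune responses, and most of those in lymphoid organs circulate in a resting state held by factors such as TCF1, LEF1, BACH2 and FOXP1. Tregs of the lung and other non-lymphoid tissues are known for an effector state with the IL-33 receptor ST2, KLRG1 and transcription factors such as PPARγ and RORα, together with AP-1 family members such as BATF. ATAC-seq reads out open DNA as the places where the Tn5 transposase can insert sequencing adaptors, so a higher count at a peak means more accessible chromatin in the cells as a population. A smaller share of cells with an open site and a weaker signal per cell cannot be told apart in such bulk libraries.

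Accessibility is given in CPM, the counts of a peak scaled to a common library total. Calls needed both an absolute log2 fold change above 0.5 and, in edgeR's quasi-likelihood test, a p adjusted by Benjamini-Hochberg of less than 0.05, and differences are given as lung minus spleen on the log2 scale with their standard error (SE). Of the tested peaks, 17852 (18.4%) were called higher in lung and 6318 (6.51%) lower. Every lung library lay above every spleen library at 9.5% of peaks and below at 5.74%. Lung libraries held 9405823 to 14172956 counts and spleen libraries 13932355 to 22439699. Between 47.5% and 50.0% of the counts in a lung library lay in promoter peaks, those within 1 kb of the start of any protein-coding transcript, internal starts included, against 50.8% to 53.1% in spleen.

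The 2 directions differed in the kind of peak they held. Peaks of up to 220 bases made up 23.4% of the tested peaks, but 73.5% of those called higher in lung and 6.73% of those called lower. Among the 9904 peaks of 209 to 211 bases, a group around the most common width of 210 bases, 89.0% were called higher and the median difference was 1.42. These peaks had a median GC content of 43.6%, and 2.65% of them lay at promoters. From 601 to 1000 bases, 5.40% were called higher and 7.07% lower. The narrow class took 4.25% to 7.12% of the counts in the spleen libraries, 12.4% and 7.80% in control lung and 13.0% and 14.1% in Vps34-deficient lung, so that the tissues did not overlap. Among narrow peaks above 10 CPM the difference had a median of 1.33 and an SD of 0.23 over 1108 peaks, against -0.07 and 0.29 over 21443 wider peaks. Peak width therefore moved with the result, and its part in it was not tested. The wider peaks were fitted again on their own, with their own scaling factors, a choice made after the values were seen. In that fit 5478 of 74428 peaks (7.36%) were called higher in lung, with a median difference of 0.98, and 3938 (5.29%) lower, with a median of -0.93. Removing the narrow class moved the median of the wider peaks from -0.08 to 0.00. Counts for the gene lists are given below with and without the narrow peaks, and single values come from the fit of all peaks.

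**Figure D1:**
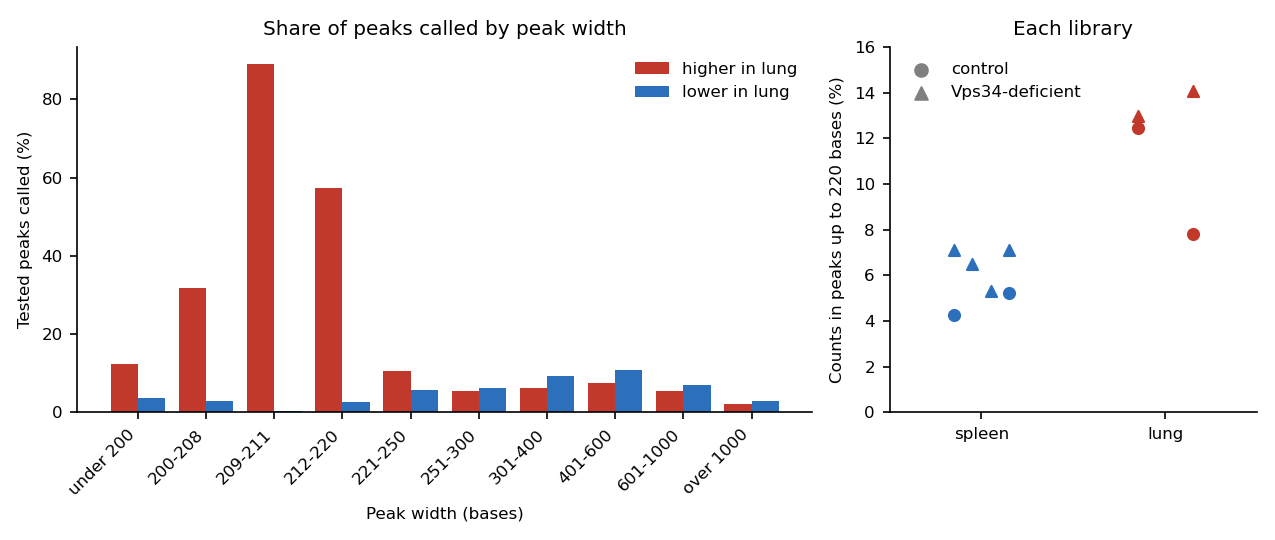
Left, share of tested peaks (%) called higher (red bars) and lower (blue bars) in lung for each class of peak width in bases. Right, share of all counts (%) in peaks of up to 220 bases in each library, with circles for control and triangles for Vps34-deficient cells; 89.0% of peaks of 209 to 211 bases were called higher, and every lung library lay above every spleen library.

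The DNA under 9 peaks that carry the comparison is shown here, each as the central 200 bases on the plus strand, 5′ to 3′, read from the RefSeq GRCm38.p6 genome. Capitals mark matches on either strand to 1 of 14 motifs: AP-1 (TGANTCA), RUNX (TGTGGTT), FOXO/FOXP (TGTTTAC), the GATA factors (AGATAA), KLF (CCACACCC), ROR (TAGGTCA), TCF/LEF (CTTTGAT), T-box (AGGTGTGA), E-box (CACGTG), E protein (CAGCTG), ETS (CCGGAAGT), and the consensus letters of IRF, NF-kB and CTCF. No motif overlapped another in these windows, and a match is a description of the letters, not a bound site.
The first 4 were higher in lung. The Bri3 window lies at chr5:144283759-144283958 in the peak that led the higher ones, the Ccr7 window at chr11:99143018-99143217, the Rora window at chr9:69313852-69314051 and the Pparg window at chr6:115440633-115440832.
Bri3: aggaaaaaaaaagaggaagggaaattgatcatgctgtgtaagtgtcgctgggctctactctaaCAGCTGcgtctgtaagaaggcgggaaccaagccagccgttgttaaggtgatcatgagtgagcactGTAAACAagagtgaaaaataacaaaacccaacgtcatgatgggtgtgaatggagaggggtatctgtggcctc
Ccr7: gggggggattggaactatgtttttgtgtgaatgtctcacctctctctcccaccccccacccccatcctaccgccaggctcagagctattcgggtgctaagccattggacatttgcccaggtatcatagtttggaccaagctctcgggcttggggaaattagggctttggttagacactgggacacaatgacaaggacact
Rora: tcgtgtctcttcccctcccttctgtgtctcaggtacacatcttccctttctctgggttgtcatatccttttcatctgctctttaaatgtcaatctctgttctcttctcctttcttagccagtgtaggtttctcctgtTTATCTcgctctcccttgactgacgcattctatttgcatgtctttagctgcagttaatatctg
Pparg: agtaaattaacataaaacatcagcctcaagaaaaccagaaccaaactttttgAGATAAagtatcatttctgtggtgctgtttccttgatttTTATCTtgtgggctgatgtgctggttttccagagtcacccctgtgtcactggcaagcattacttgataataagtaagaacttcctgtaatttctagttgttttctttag
The next 2 led the peaks lower in lung, near Pom121l12 at chr11:14142596-14142795 and near Tmem192 at chr8:64934924-64935123.
Pom121l12: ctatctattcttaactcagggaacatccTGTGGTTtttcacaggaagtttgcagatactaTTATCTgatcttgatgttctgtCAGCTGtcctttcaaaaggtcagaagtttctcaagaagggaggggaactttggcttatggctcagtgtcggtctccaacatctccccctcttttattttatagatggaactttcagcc
Tmem192: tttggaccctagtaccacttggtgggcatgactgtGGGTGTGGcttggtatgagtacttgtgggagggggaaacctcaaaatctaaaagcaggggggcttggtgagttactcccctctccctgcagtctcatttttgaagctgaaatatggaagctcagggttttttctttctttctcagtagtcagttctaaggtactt
The Mknk1 and Nprl3 peaks were chosen after their values were seen. At the Mknk1 window, chr4:115849359-115849558, no lung library held a count, and the Nprl3 window, chr11:32245707-32245906, lies in an intron of the gene beside the alpha-globin cluster.
Mknk1: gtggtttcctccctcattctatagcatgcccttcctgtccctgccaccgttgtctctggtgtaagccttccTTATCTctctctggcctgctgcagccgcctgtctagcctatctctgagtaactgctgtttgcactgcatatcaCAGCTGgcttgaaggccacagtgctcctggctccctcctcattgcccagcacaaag
Nprl3: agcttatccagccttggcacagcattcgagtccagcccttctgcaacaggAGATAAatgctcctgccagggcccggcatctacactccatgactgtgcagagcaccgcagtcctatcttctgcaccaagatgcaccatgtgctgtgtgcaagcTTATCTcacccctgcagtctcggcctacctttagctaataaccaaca
The last, in Csmd3 at chr15:48607110-48607309, is the narrow peak among the 10 that led the higher ones.
Csmd3: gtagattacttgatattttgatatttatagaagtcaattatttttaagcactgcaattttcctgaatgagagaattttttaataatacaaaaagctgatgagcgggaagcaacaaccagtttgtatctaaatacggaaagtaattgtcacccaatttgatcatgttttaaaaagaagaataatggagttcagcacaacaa
GATA letters were found in the Rora, Pom121l12 and Mknk1 windows once each and in the Pparg and Nprl3 windows 2 times each. Over all tested windows of this length, 10.2% held them. Neither the Ccr7 nor the Csmd3 window held any of the motifs.

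The peaks higher in lung, ranked by p among those where the tissues did not overlap, were led by an intron of Bri3, which encodes a small membrane protein. Its accessibility was 36.4 and 34.2 CPM in control lung and 39.6 and 43.5 in Vps34-deficient lung, and the 6 spleen libraries ran from 12.2 through a median of 14.5 to 16.1. The difference was 1.47 (SE 0.09, adjusted p = 1.2e-09), with 1.48 in control and 1.46 in Vps34-deficient cells.
Near Ccr7, the receptor that leads T cells into lymph nodes, the peak at chr11:99142577-99143658, 12 kb from the gene start, held 15.1 and 14.1 CPM in control lung and 28.7 and 27.3 in Vps34-deficient lung, against 4.05 to 6.88 with a median of 5.19 in spleen (2.10, SE 0.16, adjusted p = 3.3e-09). The smaller peak beside it, at chr11:99142115-99142388, went from 0.34 ± 0.09 CPM in spleen (SD, n = 6) to 4.61 ± 2.00 in lung (SD, n = 4), a difference of 3.81 (SE 0.31, adjusted p = 8.1e-09).
In Dusp10, which encodes a phosphatase of stress-activated MAP kinases, an intron peak held 37.3, 37.8, 66.9 and 57.9 CPM in the lung libraries and 17.2 to 24.2 in spleen (1.33, SE 0.10). A further peak 41.6 kb from its start, named after its values were seen, held 5.01 to 9.98 CPM in lung and 0.28 to 0.87 in spleen (3.56, SE 0.28).
The Zeb1 promoter, that of a zinc-finger repressor active in T cells, held 86.7 to 102 CPM in lung and 42.6 to 52.5 in spleen, and the difference was 0.96 (SE 0.07).
Gprc5a, an orphan receptor gene, showed 93.8 to 103 CPM at its promoter in lung and 51.4 to 57.9 in spleen (0.83, SE 0.06).
Intron peaks of Tmem108 (1.55), Tmem64 (1.11) and Tbca (1.79), and an intergenic peak 44.1 kb from Snx18 (1.09), were also higher. Lack of overlap between the tissues was a condition for entering this ranking.
The tenth, in an intron of Csmd3, was 210 bases wide. It held 52.6, 32.5, 60.4 and 63.7 CPM in lung and 12.9 to 24.7 in spleen (1.54, SE 0.12), and its call was lost with offsets fitted to GC content.

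In the other direction, the leading peak lay in intergenic DNA on chromosome 11, with Pom121l12 as the nearest gene. It held 15.5, 15.2, 15.1 and 17.6 CPM in the lung libraries and 36.7 to 39.6, with a median of 37.3, in spleen (-1.25, SE 0.09, adjusted p = 3.1e-09). All 4 lung libraries lay close together and far below spleen.
A peak 12.2 kb upstream of Tmem192 held 3.98 to 8.82 CPM in lung and 15.9 to 27.9 in spleen (-1.82, SE 0.13).
In Tbc1d4, whose product AS160 controls glucose transporter traffic, an intron peak held 15.7 to 19.5 CPM in lung and 35.6 to 39.6 in spleen (-1.08, SE 0.09, adjusted p = 1.2e-08).
Sema4d encodes a semaphorin made by T cells, and a peak 7.2 kb upstream of its nearest start held 0.59 to 1.66 CPM in lung and 5.34 to 8.73 in spleen (-2.73, SE 0.24).
An intron peak of Gm281 gave the largest difference of the 10, -2.99 (SE 0.22), from 10.2 CPM in spleen to 1.27 in lung. The others, near Magi2, Cox7c, Map4k3, Sepsecs and Zdhhc2, differed by -2.38 to -1.26, and lack of overlap was again a condition of the ranking. The plot of these 20 peaks shows every library.

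**Figure D2:**
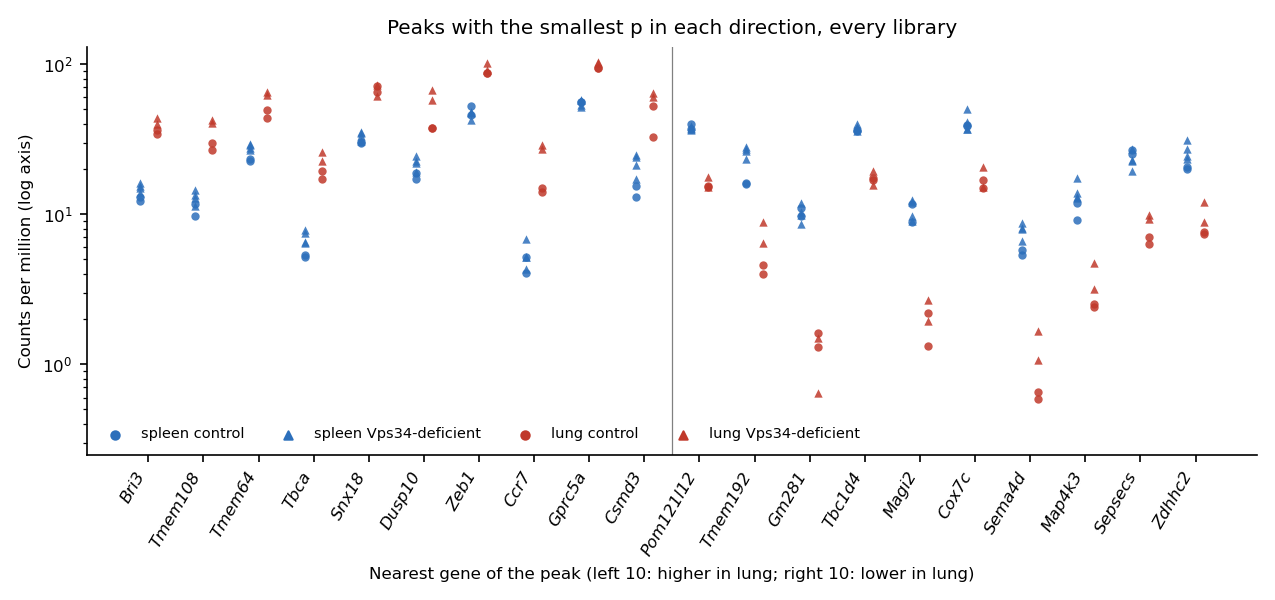
Accessibility (CPM, log axis) in each of the 10 libraries at the 10 peaks with the smallest p-value in each direction; lung in red, spleen in blue, circles for control and triangles for Vps34-deficient cells. Red and blue points do not overlap at any of the 20 peaks, such as Bri3 (34.2 to 43.5 CPM in lung, 12.2 to 16.1 in spleen).

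Gene lists were read next, each over the tested peaks in its genes or within 10 kb, and set beside all tested peaks, of which 18.4% were higher and 6.51% lower (7.36% and 5.29% among wider peaks fitted alone). The median difference over all tested peaks was -0.01.

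Among 14 genes of lymphoid homing and the resting state, calls were more often lower than higher. Of 379 peaks 23 were called higher (6.07%) and 43 lower (11.3%), with a median of -0.13, and of 330 wider peaks 19 were higher (5.76%) and 23 lower (6.97%). Bcl2, which encodes a survival protein, had 8 of 40 peaks lower and none higher. Its leading peak held 1.91 to 5.58 CPM in lung and 6.18 to 10.6 in spleen (-1.24, SE 0.19, adjusted p = 2.1e-05).
Foxp1, a forkhead factor of the quiescent state, had 17 of 103 peaks lower and 10 higher. The peak with its smallest p was a higher one, at 9.98 to 11.3 CPM in lung and 3.82 to 5.39 in spleen (1.22, SE 0.16), whereas a peak 116.4 kb into the gene went from 8.46 CPM in spleen to 3.00 in lung (-1.41, SE 0.21).
In Bach2, a repressor of effector genes, 7 of 71 peaks were lower and 1 was higher, and in the fit of wider peaks 2 of 66 were lower. The higher one, 210 bases wide and nearest to the start of Gja10, held 3.09 to 6.65 CPM in lung and 0.86 to 2.27 in spleen (1.42, SE 0.26).
Il6ra, a chain of the IL-6 receptor, had 5 of 22 peaks lower, led by 1.96 to 4.33 CPM in lung against 4.39 to 6.67 in spleen (-0.82, SE 0.21, adjusted p = 0.0039).
Members of this list went both ways, and 9 of the 14 genes had a higher call and 9 a lower one. Ccr7 had 2 of 11 peaks higher and none lower. Klf2, a regulator of trafficking, had no call among 4 peaks, and Tcf7 had 1 lower among 11.

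Transcription factors of effector and tissue Tregs had more higher than lower calls, as had all tested peaks (18.4% and 6.51%). Their share of higher calls passed that of all peaks only among wider ones (12.7% against 7.36%). Of 278 peaks of 20 genes 38 were higher (13.7%) and 15 lower (5.40%), with a median of 0.04, and of 236 wider peaks 30 were higher (12.7%) and 8 lower (3.39%). Rora, which encodes RORα, held the most, with 16 of 53 peaks higher and 2 lower, and 11 and 1 of 41 wider peaks.
Its leading peak held 8.94, 13.1, 12.1 and 9.22 CPM in the lung libraries and 3.53 to 6.18 in spleen (1.36, SE 0.18, adjusted p = 2.9e-06). Several higher wide peaks stood together between 644 and 692 kb from the first start of the gene, among them one that went from 14.1 to 28.1 CPM (0.88, SE 0.15). Another, 735 kb from that start and just beyond the gene, went from 0.26 to 2.42 CPM (2.83, SE 0.46).
Tox, a nuclear factor of chronically stimulated T cells, had 7 of 48 peaks higher and 2 lower. Its leading peak held 39.2 to 61.3 CPM in lung and 23.3 to 28.9 in spleen (0.92, SE 0.09).
Pparg, a nuclear receptor of tissue Tregs, had 3 of 7 peaks higher. The intron peak shown above, singled out after its values were seen, held 11.3 and 17.7 CPM in control lung, 2.50 and 3.22 in Vps34-deficient lung, 2.41 and 4.94 in control spleen and 0.61 to 1.28 in Vps34-deficient spleen. The tissues overlapped, but within each genotype every lung library lay above every spleen library, with differences of 2.02 in control and 1.58 in Vps34-deficient cells (1.82 over both, SE 0.25, adjusted p = 4e-06).
For Rbpj and Ikzf3, the remaining genes that the rule named, the leading peaks were 210 and 213 bases wide (1.37 at both), the latter nearest to Grb7. Rbpj had 3 of 21 peaks higher and 3 lower, and 0 and 3 of 15 wider ones, so that its calls were lower once narrow peaks were set aside, and Ikzf3 had 2 of 23 higher and 1 lower (1 and 0 of 21). Gata3 had no call among 15 peaks, nor did Maf among 3, and Batf and Irf4 had none in the fit of all peaks and 1 higher each in the fit of wider peaks.

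**Figure D3:**
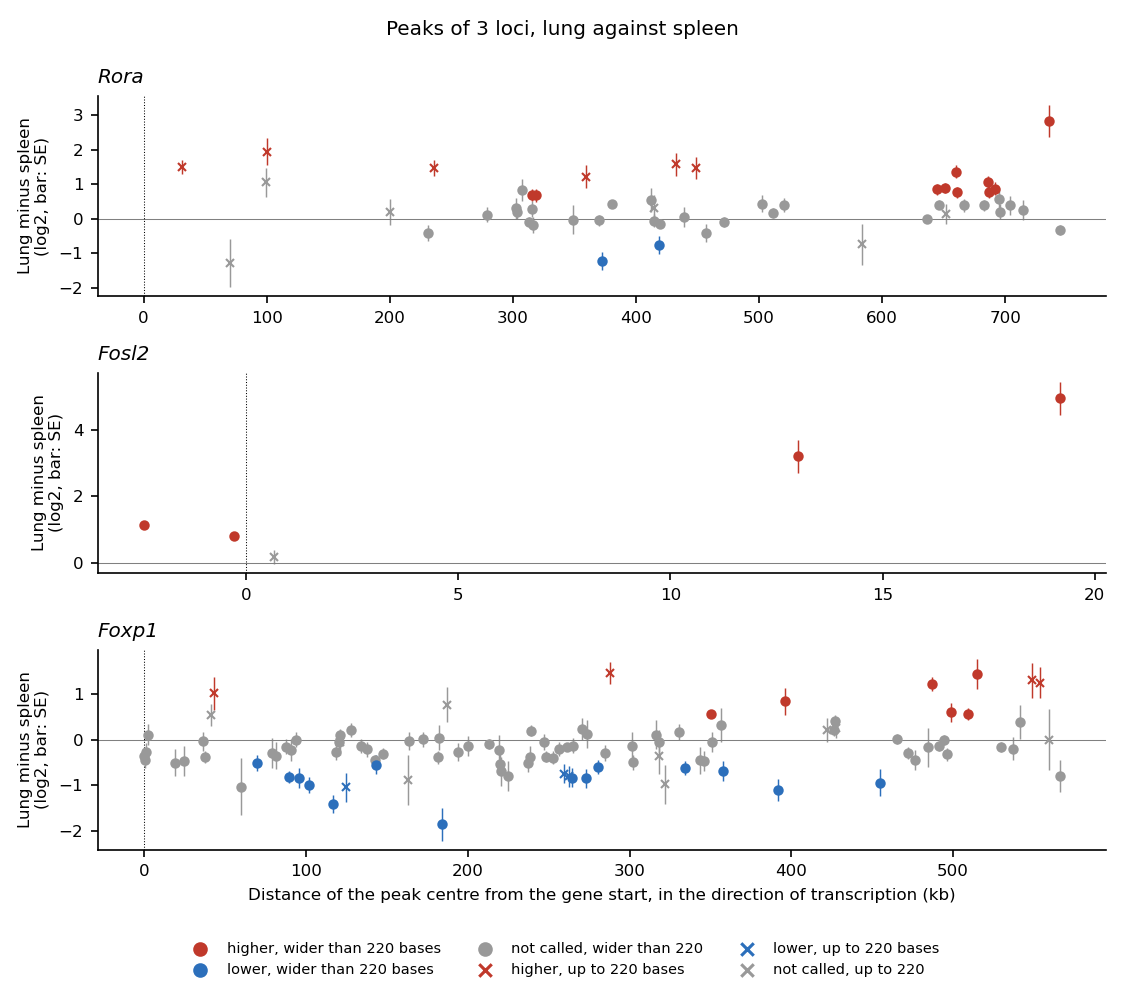
Difference of lung minus spleen (log2, bars show the SE) at every tested peak in or within 10 kb of Rora, Fosl2 and Foxp1, against the distance in kb of the peak centre from the gene start; circles are peaks wider than 220 bases, crosses narrower ones, red called higher, blue called lower and grey not called. Rora had 16 of 53 peaks higher, Fosl2 4 of 5, and Foxp1 17 of 103 lower beside 10 higher.

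The Treg core and T cell identity genes had more lower than higher calls over all peaks and equal counts among wider ones. Of 241 peaks 16 were higher (6.64%, against 18.4% of all) and 24 lower (9.96%, against 6.51%), with a median of -0.10. Of 209 wider peaks 16 went each way (7.66%). Foxp3, which defines the lineage, had no call among its 11 wider peaks and 1 higher call, at a narrow peak, among 12 in all, and its promoter peaks summed to 65.6 to 88.9 CPM in lung and 68.4 to 88.1 in spleen.
Ikzf2, the gene of the Treg factor Helios, had 7 of 51 peaks lower and 2 higher. Its leading peak held 12.7 to 17.7 CPM in lung and 19.8 to 28.5 in spleen (-0.69, SE 0.12, adjusted p = 1.0e-04).
Within Runx1, a partner of FOXP3, 4 of 40 peaks were higher and 1 lower, the latter at 2.40 to 4.49 CPM in lung and 6.73 to 10.2 in spleen (-1.33, SE 0.19).
Ctla4, an inhibitory receptor of Tregs, had 3 of 16 higher and 1 lower, led by a peak that covers the first base of the annotated gene and lies 22.0 kb upstream of its nearest protein-coding transcript start, with 24.2 to 32.5 CPM in lung and a median of 14.2 in spleen (0.93, SE 0.12).
For Cd5, a brake on T cell receptor signalling, 4 of 13 peaks were lower (-0.66, SE 0.12 at the leading one).

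Surface receptors of effector Tregs held 146 peaks, of which 22 were higher (15.1%) and 10 lower (6.85%), and 25 (18.7%) and 6 (4.48%) of 134 wider ones. Tigit, an inhibitory receptor, had 3 of 6 peaks higher. Its promoter held 82.6, 97.7, 62.9 and 73.6 CPM in the lung libraries and 33.7 to 56.2, with a median of 39.6, in spleen (0.84, SE 0.08, adjusted p = 2.1e-08), and the tissues stood apart.
Il1rl1 encodes ST2. In it 4 of 9 peaks were higher, and the leading one, 4.0 kb upstream, held 3.38 and 5.08 CPM in control lung, 1.66 and 1.07 in Vps34-deficient lung and 0.34 to 0.69 in spleen (2.18, SE 0.40, adjusted p = 0.00019). The difference was 3.10 in control and 1.37 in Vps34-deficient cells, and the test of that gap gave an adjusted p of 0.63.
Klrg1, the marker of terminal effector Tregs, had 3 of 8 peaks higher, or 5 in the fit of wider peaks. At its promoter, named after its values were seen, the lung controls held 5.45 and 6.04 CPM, Vps34-deficient lung 0.67 and 1.07, control spleen 1.47 and 2.33 and Vps34-deficient spleen 0.12 to 0.71 (1.43, SE 0.36, adjusted p = 0.0035). The tissues overlapped there, and with Vps34-deficient libraries alone the call was lost.
The IL-18 receptor gene Il18r1 had 1 of 8 higher, or 3 of 7 wider peaks.
Pdcd1, which encodes the inhibitory receptor PD-1, went the other way at its leading peak, 1.2 kb upstream, with 14.2 to 16.5 CPM in lung and 27.1 to 32.4 in spleen (-0.89, SE 0.10, adjusted p = 3.4e-07), while 1 of its other peaks was higher and 1 lower.
Cd44, an adhesion receptor of activated cells, had 4 of 20 higher and 1 lower, but the leading one was 210 bases wide and nearer to Slc1a2 (1.26, SE 0.16).

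Chemokine and related receptors had 16 of 116 peaks higher (13.8%) and 6 lower (5.17%), and 14 (13.7%) and 5 (4.90%) of 102 wider ones. Gpr183, a receptor that places lymphocytes within follicles by oxysterols, had 2 of 12 peaks lower and 1 higher. It held 1.07 to 2.16 CPM at an upstream peak in lung and 4.26 to 8.21 in spleen (-1.71, SE 0.25, adjusted p = 1.3e-05).
Ccr9, the gut-homing receptor, had 2 of 21 peaks higher and 3 lower. A peak nearest to the start of Lztfl1 held 3.83 to 6.99 CPM in lung and 8.10 to 15.8 in spleen (-1.01, SE 0.16).
For Gpr15, a homing receptor, 3 of 7 were higher, the leading one 210 bases wide (1.60, SE 0.24). Ccr8 and Cxcr3, known from effector and type 1 Tregs, had no call among 6 and 3 peaks.

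Integrins gave 15 higher (10.4%) and 14 lower (9.72%) of 144 peaks, and 14 (11.3%) and 10 (8.06%) of 124 wider ones. Itgb3, the beta chain of the vitronectin receptor, had 7 of 14 peaks higher and none lower. The one with the smallest p, in an intron of Gm11639, held 49.6 to 68.7 CPM in lung and 42.1 to 47.2 in spleen, a difference of 0.41 (SE 0.08, adjusted p = 0.00023) that was too small to be called, and another, singled out after its values were seen, held 16.1 to 17.8 CPM in lung and 8.19 to 14.1 in spleen (0.74, SE 0.15).
Itga6, the laminin receptor chain, had 4 of 20 lower and none higher (-0.65, SE 0.16 at the leading one). Itga2, a collagen receptor chain, had 3 of 16 higher, and Itga1 3 of 13 beside 1 lower, led by a peak of 215 bases (1.23, SE 0.12).

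Genes of suppression and tissue repair had 18 of 102 peaks higher (17.6%, against 18.4% of all) and 5 lower (4.90%), and 17 (18.9%, against 7.36%) and 3 (3.33%) of 90 wider ones. Dgat1, an enzyme of triglyceride synthesis that is active in lipid-handling Tregs, had 4 of 5 peaks higher and all 5 in the fit of wider peaks. Upstream of it, 8.72 and 8.39 CPM in control lung and 2.33 and 2.79 in Vps34-deficient lung stood above 0.61 to 1.98 in spleen (1.85, SE 0.26, adjusted p = 4.9e-06).
Lgals3, the gene of galectin-3, had 5 of 8 higher. Its leading peak held 4.14 and 6.18 CPM in control lung, 0.832 and 0.965 in Vps34-deficient lung, 1.29 and 1.79 in control spleen and 0.242 to 0.426 in Vps34-deficient spleen (1.69, SE 0.34, adjusted p = 0.00043), and the call was lost with Vps34-deficient libraries alone.
Il10 had 2 of 4 higher. At a coding exon peak 1.8 kb from its start, chosen after its values were seen, lung controls held 15.5 and 23.7 CPM against 10.3 and 12.1 in control spleen, and Vps34-deficient libraries 4.49 and 4.50 in lung against 2.42 to 3.73 in spleen (0.65, SE 0.17, adjusted p = 0.0056). This call was lost without the second lung control, at 0.47, with the libraries of either genotype alone and without genotype in the model.
Nt5e, which makes adenosine at the cell surface, and Tgfb1 were named through higher peaks of 214 and 210 bases (1.28 and 1.63). Nt5e had 2 of 10 peaks higher and 2 lower, and 0 and 1 of 8 wider ones. Tgfb1 had 1 of 8 higher and 2 lower, and 0 and 1 of 7 wider ones.

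Cytokine genes had 6 of 37 peaks higher (16.2%, against 18.4% of all) and 2 lower (5.41%, against 6.51%). In the fit of wider peaks 6 of 37 were higher (16.2%, against 7.36%) and 1 lower (2.70%, against 5.29%). Both peaks of Il17a were higher, and the leading one held 42.3 and 51.6 CPM in control lung, 5.32 and 16.7 in Vps34-deficient lung, 19.0 and 19.6 in control spleen and 2.78 to 4.97 in Vps34-deficient spleen (1.35, SE 0.19, adjusted p = 8.6e-06).
A peak near Il4 and nearest to the start of Il13, both type 2 cytokine genes, held 5.78 and 10.6 CPM in control lung and 2.25 and 2.36 in Vps34-deficient lung, against 0.71 to 2.75 in spleen (1.56, SE 0.29). At Ifng, the type 1 cytokine, an intron peak was lower, at 1.09 to 3.09 CPM in lung and 3.39 to 4.42 in spleen (-0.97, SE 0.27, adjusted p = 0.0068).
As at Pparg, Klrg1, Lgals3 and Il10, the genotypes differed within each tissue at Il17a, and the tissue groups overlapped over all 10 libraries.

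Of 16 AP-1 and immediate early genes, 14 of 107 peaks were higher (13.1%) and none lower, with a median of 0.08, and 14 of 98 wider ones were higher (14.3%). Fosl2, which encodes the AP-1 subunit FRA2, accounted for 4 of these and had 5 peaks in all. In its untranslated exon 19.2 kb from the start, the lung libraries held 3.05, 3.83, 2.83 and 4.72 CPM and the spleen libraries 0 to 0.26, with 3 of them at 0 (4.96, SE 0.50, adjusted p = 5.5e-08). Its promoter rose from 44.4 ± 4.87 CPM in spleen to 78.9 ± 16.3 in lung (0.80, SE 0.10).
Atf3, a stress-induced factor of the same family, had 4 of 9 higher, led by 75.8 to 114 CPM in lung and 52.2 to 62.2 in spleen (0.63, SE 0.08, adjusted p = 8.8e-07).
In Nr4a3, a nuclear receptor induced by T cell receptor signals, the leading peak held 9.57 to 13.9 CPM in lung and 2.93 to 8.94 in spleen (1.23, SE 0.19). Dusp1, a MAP kinase phosphatase, had 2 of 14 higher, led by a peak nearest to Ergic1 (1.42, SE 0.34).
The AP-1 genes Jun, Junb and Jund and the zinc-finger gene Egr1 had no call among 4, 8, 4 and 7 peaks.

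The lists of lipid and oxygen metabolism, TGF-beta and retinoid signalling, and the Vps34 complex were read last. The first had 4 of 100 peaks higher, none of them wider than 220 bases, and 3 lower. At Cd36, a fatty acid transporter, an exon peak held 0, 0, 0 and 0.43 CPM in the lung libraries and 0.61 to 2.33 in spleen, and it was called lower (adjusted p = 0.00049).
Leading peaks of Pfkfb3 and Scd1, a glycolytic regulator and a fatty acid desaturase, differed by -0.33 and -0.43, too little to be called. That of the glucose transporter gene Slc2a3 was lower (-0.67, SE 0.18, adjusted p = 0.0049).
The TGF-beta and retinoid list had 13 of 167 higher (7.78%) and 11 lower (6.59%), and 11 (7.43%) and 9 (6.08%) of 148 wider ones. Smad3, the TGF-beta signal transducer, had 4 of 27 peaks higher and 3 lower, and 3 and 1 of 22 wider ones. At its leading peak, which covers an internal start of the gene, lung libraries held 2.80 to 3.05 CPM and spleen libraries 5.21 to 10.5 (-1.15, SE 0.22, adjusted p = 0.00021). Leading peaks of Tgfbr2 (4 of 26 higher and 2 lower) and Skap1 (3 of 19 higher, none of 15 wider ones) were 210 and 211 bases wide (1.42 and 1.66), and that of Ski was not called (0.46, SE 0.09).
For the Vps34 complex, 8 of 60 were higher (13.3%) and 1 lower (1.67%), and in the fit of wider peaks 3 of 52 were higher (5.77%) and none lower. Becn1, Atg14, Rubcn and Nrbf2 had no call. At the leading peak of Uvrag, which pairs with Vps34 in endosomes, the difference was 0.55 (SE 0.15, adjusted p = 0.0087), and leaving out any 1 of 5 libraries ended the call, at 0.39 to 0.50 against the threshold of 0.5. The leading peaks of Ambra1, Pik3r4 and, far downstream, Pik3c3 were 210, 210 and 205 bases wide (1.85, 1.43 and 2.66).
The promoter of Pik3c3, the targeted gene, held 58.1 ± 3.79 CPM in lung and 62.9 ± 2.76 in spleen and was not called (-0.10, SE 0.07, adjusted p = 0.29). Accessibility of a promoter does not measure the deletion.

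**Figure D4:**
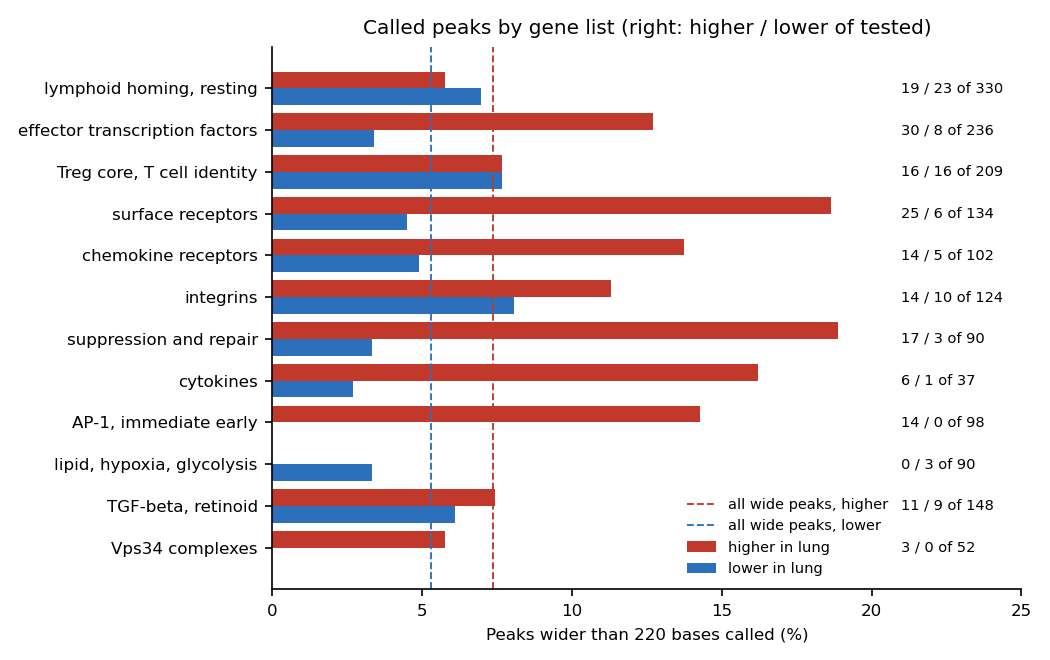
Share of the peaks wider than 220 bases (%) called higher (red bars) and lower (blue bars) in lung in each of the 12 gene lists, with the numbers at the right. Dashed lines mark the shares over all wider peaks, 7.36% higher and 5.29% lower; the surface receptor (18.7% higher) and suppression and repair lists (18.9%) lay furthest beyond the first line.

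Promoters carried few of the calls. They made up 17.9% of tested peaks, 4.78% of those called higher and 7.52% of those called lower. Among wider peaks the shares were 21.9%, 11.2% and 6.55%, and 615 of 16308 wider promoter peaks (3.77%) were higher and 258 (1.58%) lower. Peaks at the promoters described next were chosen after their values were seen.
Gng4, a G protein gamma subunit gene, held 34.5 to 44.6 CPM at its promoter in lung and 12.7 to 19.6 in spleen (1.43, SE 0.12, adjusted p = 1e-08). At an internal start of Mbnl1, a splicing regulator, the values were 45.5 to 62.2 and 21.6 to 25.0 CPM (1.17, SE 0.09).
An internal start of Crem, a factor of cyclic AMP responses, rose from 61.5 to 75.3 CPM in spleen to 98.8 to 115 in lung (0.66, SE 0.06), and a peak 17.3 kb from the nearest start went from 0.20 ± 0.09 to 3.72 ± 1.55 CPM (3.98, SE 0.40). Nr3c1, the glucocorticoid receptor gene, held 49.7 to 76.3 CPM in lung and 34.7 to 43.4 in spleen (0.57, SE 0.08).
Egln1, an oxygen sensor that marks HIF-1α for decay, held 142 to 207 CPM in lung and 93.7 to 127 in spleen (0.74, SE 0.08).
Lower promoters included Cst7, the gene of cystatin F, a protease inhibitor of cytotoxic cells, at 33.1 to 43.8 CPM in lung and 62.9 to 80.2 in spleen (-0.84, SE 0.09, adjusted p = 7.9e-08). At Izumo1r, which encodes the Treg folate receptor FR4, the values were 21.6 to 29.7 and 40.0 to 46.0 CPM (-0.77, SE 0.09).
Zbtb7b, the gene of the CD4 lineage factor ThPOK, held 1.94 ± 0.51 CPM at an internal start in lung and 5.49 ± 0.93 in spleen (-1.46, SE 0.23).

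Long loci with many peaks led the count of calls. By number of higher peaks among protein-coding genes, the first were a readthrough model, Gm20388, that spans 4435 kb (61 of 416 peaks higher and 26 lower), and the growth factor receptor gene Fgfr2, annotated over 2961 kb (25 of 174 higher and 23 lower), both with a smaller share of higher peaks than the 18.4% of all, then Lsamp, Thsd7b, Pde4d, Rora, Csmd1, Dlg2, Wwox and Rbfox1. In Lsamp, a neuronal adhesion gene, 18 of 25 peaks were higher, yet none of its 6 wider peaks was, and in Csmd1 15 of 16 were higher and none was wider than 220 bases. In Dlg2, a synaptic scaffold gene, 15 of 31 were higher and 3 of 14 wider ones. With narrow peaks set aside, the order began with Gm20388, Nsmce2 (13 of 46), Rora (11 of 41), Galnt2 (10 of 22), Wwox (10 of 56) and Itpr1 (10 of 51), and Emb, an adhesion chaperone gene, had 8 of 15.
By number of lower peaks, Gm20388 (26) and Fgfr2 (23) were followed by Foxp1 (17), its readthrough Gm20696 (14), Clec16a (12 of 41), Ryr2, Tenm4, Ext1, St6galnac3 and Zmiz1. Clec16a, an autophagy gene near immune disease loci, had 9 of 40 wider peaks lower and none higher. Nrp1, the neuropilin gene that marks thymus-derived Tregs, was counted after its values were seen and had 8 of 27 peaks lower and 4 higher, and 8 and 1 of 24 wider ones.

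A group of lower peaks was all but absent from lung. In every library 91.5% to 96.5% of peaks held an even count, so both reads of a fragment were mostly counted, and 3 counts then hold 1 whole fragment. At 159 called peaks (2.52% of lower calls) no lung library held more than 3 counts, and 24 of these had no count in any lung library. The median of their mean accessibility in spleen was 1.19 CPM. In the other direction 5 higher peaks held at most 3 counts in every spleen library, a limit harder to meet there, since spleen had more libraries and most of them were deeper. At the Mknk1 intron peak the spleen libraries ran from 1.52 through 1.77 to 3.85 CPM and the lung libraries were all at 0.
Near Tspo2, the gene of an erythroid membrane protein, spleen held 1.13 to 2.78 CPM and lung none. GATA letters were found in 47.8% of these 159 windows, against 10.2% of all tested ones.
Calls at markers of erythroid cells were mostly lower. For a list of 5 of them, Gata1, Klf1, Hbb-bt and Hba-a1 included, 7 of 18 peaks were lower (38.9%, against 6.51% of all tested peaks). None was higher, and the median was -0.73. The promoter peaks of these markers summed to 27.0 to 33.9 CPM in lung and 33.9 to 42.4 in spleen. Klf1 had no call among its 4 peaks, and Hba-a1 had no promoter peak. A list of 20 further erythroid genes, written after the values were seen, had 30 of 96 peaks lower (31.3%, against 6.51%) and 7 higher. Tal1 and Slc25a37 had no call, and Epor had 1 higher and none lower. Promoter sums of this list were 181 to 197 CPM in lung and 227 to 248 in spleen, a description only, given how it was written. The uncalled promoters of Bpgm (87.1 to 95.2 CPM in lung, 95.4 to 111 in spleen) and Sptb (32.5 to 39.2 and 39.1 to 48.3) held the most.
The beta-globin promoter Hbb-bt held 0.22, 0.29, 0.33 and 0.43 CPM in the lung libraries and 2.33 to 3.98 in spleen (-3.22, SE 0.37, adjusted p = 3.1e-07). The Nprl3 peak shown above, an intron site next to the alpha-globin genes, held 0 to 0.29 CPM in lung and 2.33 to 6.45 in spleen (-4.39, SE 0.46).
At the promoter of Slc4a1, the red cell anion exchanger, the values were 0 to 0.74 and 1.70 to 8.10 CPM (-3.33, SE 0.46). How far erythroid DNA in the spleen sorts contributed to the lower calls was not tested.

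Sums over the promoter peaks of markers of other cell types overlapped between the tissues. They were 35.1 to 44.2 CPM in lung and 31.0 to 38.0 in spleen for B cell genes, 32.2 to 56.7 and 30.2 to 43.3 for myeloid genes, 25.7 to 32.2 and 27.9 to 34.3 for lung epithelium, 29.4 to 38.9 and 30.0 to 36.1 for endothelium, 22.3 to 31.7 and 24.2 to 29.8 for fibroblasts and 27.2 to 41.2 and 27.9 to 37.7 for CD8 and NK cells. The defining genes Sftpc, Sftpb, Sftpa1 and Scgb1a1 of lung epithelium, Cd79a and Ms4a1 of B cells and Lyz2 and Csf1r of myeloid cells had no promoter peak. T cell and Treg genes summed to 250 to 333 CPM in lung and 276 to 328 in spleen, and the labelled cell type had peaks at all 8 of its marker promoters. Single marker promoters were called higher in lung with no overlap. They included Cdh5 of endothelium, Nkx2-1 of lung epithelium and Klrd1 of NK cells. Cdh5 held 1.18 to 3.43 CPM in lung and 0.17 to 1.03 in spleen, Nkx2-1 1.33 to 2.14 and 0.35 to 1.10, and Klrd1 3.09 to 6.43 and 1.37 to 2.42. Of all peaks of B cell genes 12 of 35 were called higher, and 5 of 26 wider ones (19.2%, against 7.36% of all). For CD8 and NK cell genes these were 5 of 19 and 4 of 17 (23.5%), for endothelium 6 of 30 and 3 of 24 (12.5%), for lung epithelium 4 of 19 and 1 of 13, for myeloid genes 2 of 27 and 0 of 21 and for fibroblasts 1 of 19 and 0 of 13. The part of such cells in the higher calls was not tested.

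The tissue difference was then read in each genotype from a fit with 4 group means. In control cells 11.8% of peaks were called higher in lung and 3.53% lower, and in Vps34-deficient cells 12.5% and 4.72%. Among wider peaks fitted alone, 3996 were higher and 2410 lower in control cells and 3074 and 2309 in Vps34-deficient cells, with 1548 and 878 called in both and 8 called in opposite directions. Of the peaks called higher in control cells 90.7% had the same sign in Vps34-deficient cells, where their median was 0.63 against 1.16, and of those called lower 92.7% did (-0.65 against -1.21). From the other side, 95.3% of the peaks called higher in Vps34-deficient cells were above 0 in control cells (median 0.90 against 1.09) and 89.4% of the lower ones below 0. The peaks were chosen by their value in 1 of the genotypes, so these medians are a description, and what part the choice has in their gap was not tested.
No peak was called for a difference of the tissue effect between genotypes in edgeR's quasi-likelihood test, where 7060 peaks had an unadjusted p below 0.05 and the smallest adjusted p was 0.16. DESeq2 called 5 higher and 30 lower (5817 at an unadjusted p below 0.05), and without the first lung control edgeR called 9 and 29. The 5478 wider peaks called higher over both genotypes had medians of 1.06 in control and 0.90 in Vps34-deficient cells, and the 3938 lower ones -0.97 and -0.92. These peaks were called on the same libraries, so that a shared sign in the genotypes (5455 and 3937 of them) follows largely from the call. Among the single peaks given above, the calls at Il1rl1, Klrg1, Lgals3, Il10, Il4, Atf3, Dusp1, Slc2a3 and Pik3r4 were lost with Vps34-deficient libraries alone, and those at Bach2, Il6ra, Cd5, Itga6, Itgb3, Il10, Ifng, Slc2a3, Ambra1 and Uvrag with control libraries alone, which leave fewer samples.

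**Figure D5:**
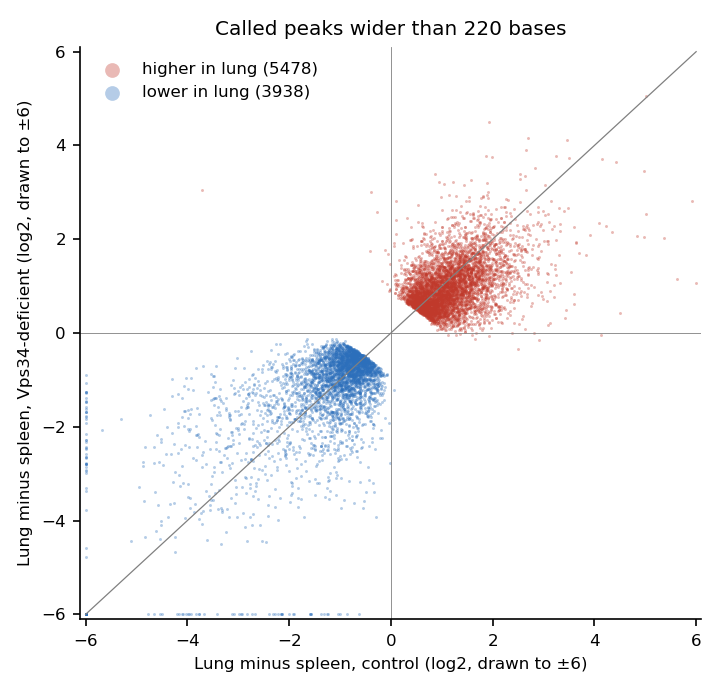
Difference of lung minus spleen (log2) in control cells against that in Vps34-deficient cells for each wider peak called over both genotypes, red higher (5478) and blue lower (3938) in lung, with the line of equal values; values beyond 6 are drawn at the edge. Since the peaks were called on these same libraries, a shared sign (5455 and 3937 points) follows largely from the call, and the medians were 1.06 and 0.90 for higher and -0.97 and -0.92 for lower peaks in control and Vps34-deficient cells.

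Motif letters were counted in the central 200 bases of distal peaks. Among wider distal peaks called higher in lung, 17.5% held an AP-1 motif, against 15.1% of those called lower and 12% of all. RUNX letters were found in 15.5% of the wider higher peaks, 8.70% of the lower ones and 10.5% of all. KLF letters stood in 4.46%, 2.91% and 3.25%, NF-kB letters in 3.22%, 2.09% and 2.47%, and E protein letters in 15%, 14.0% and 13.7%. For these 5 motifs the order turned with narrow peaks included. AP-1 letters were then in 9.96% of higher, 13.6% of lower and 11.2% of all distal peaks, RUNX letters in 7.18%, 8.52% and 9.30%, KLF letters in 2.26%, 3.03% and 2.94%, NF-kB letters in 1.47%, 2.31% and 2.17%, and E protein letters in 10.7%, 13.6% and 12.9%. FOXO/FOXP letters were more frequent among higher peaks either way, at 5.39%, 2.12% and 3.22% of wider peaks and 3.45%, 2.07% and 3.13% with narrow ones, and so were ROR letters (2.91%, 2.04% and 1.92%, and 2.32%, 1.90% and 1.97%).
GATA letters were more frequent among the wider lower peaks, at 16.9%, than among the higher ones (12.8%) or all (11.2%), and so were IRF letters (6.74%, 2.93% and 4.65%). TCF/LEF letters differed little (5.46%, 4.73% and 4.78%). Those of CTCF, the insulator factor, were rare in called peaks, at 0.37% of higher and 0.11% of lower ones against 1.09% of all, and 0.10%, 0.22% and 0.88% with narrow peaks included. Shares for T-box, E-box and ETS letters were 1.03%, 4.03% and 0.31% among higher, 1.09%, 4.32% and 0.54% among lower and 1.18%, 4.31% and 0.73% among all wider distal peaks.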

How the data were processed

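The deposited table held read counts per peak in 10 libraries, with no normalization. Even values stood at 91.5% to 96.5% of peaks per library, so most fragments entered as 2 reads, and counts divided by 2 were an alternative (17204 peaks higher and 7290 lower). Per the study's methods, the authors trimmed reads, aligned them with BWA, removed duplicates with Picard, shifted reads for the Tn5 insertion, kept nucleosome-free fragments, called peaks per sample with MACS2, kept those seen in enough replicates of a genotype, merged them and counted reads with bedtools. The submitters' processing notes list MACS2 2.1.0.20150603, Picard 1.65 and cutadapt 1.9. The methods name mm9 and the notes GRCm38. GRCm38 was used, since peaks covered 51.2% of its 21951 gene starts and, once moved along the genome, 2.67% to 2.82%. The methods give the spleen replicates the other way round, and the labels were followed. The labels list TCRb for every sort, whereas the series' design text leaves it out for spleen.

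Counts were analysed with edgeR 4.0.16 (R 4.3.3): TMM factors, filterByExpr over the 4 groups, and a quasi-likelihood fit of genotype plus tissue, with p-values adjusted over all 97109 tested peaks by Benjamini-Hochberg. A fit of 4 group means gave the effect in each genotype and their difference. Peaks were assigned to protein-coding genes that they overlap or lie within 10 kb of. CPM used TMM-scaled totals, and count depth limits the precision of weak peaks. Named were, in each direction, the 10 called peaks with the smallest p where the tissues did not overlap, 1 per nearest gene, and the 10 genes with the most called peaks, and in each list up to 4 genes with the most called peaks, ties by the smallest p, each through its peak of the smallest p (its leading peak). The comparison, the lists and the rule were chosen with earlier results of these data known, and other named peaks after their values were seen. The separate fit of peaks wider than 220 bases was likewise added after seeing the data. Alternatives included DESeq2 1.42.0, loess offsets computed with limma 3.58.1, other scalings, filters and thresholds, and leaving out each library. No sequence was read for peaks off the assembled chromosomes. Single results for a few members of the gene and marker lists are not reported here, while the list totals cover every member.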

Additional observations from a re-analysis of the deposited data

Results flagged for a closer look

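Among the peaks named by rule, the 4 Vps34-deficient spleen libraries were searched for a library apart from the others, by its gap to the nearest one as a share of the group's range on the log2 CPM scale (critical value 0.829). The 71 tests also took in the Pik3c3 promoter and, for the libraries, total counts and the shares of counts in narrow and promoter peaks. Of these tests 4 passed, and chance passes about 1 in 20. At the Zeb1 promoter replicate 1 lay below the others (42.6 CPM against 47.5 to 47.8, ratio 0.957). At the narrow Itga1 peak replicate 3 was low (53.5 CPM against 78.6 to 80.7, ratio 0.934). Replicate 2 was low at the Cd36 exon peak (0.606 CPM against 1.42 to 1.66, ratio 0.839), where the gap would not pass on the linear CPM scale, and replicate 1 at the Pfkfb3 promoter (50.8 CPM against 53.6 to 53.9, ratio 0.9).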

How the results depend on the processing

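The 17852 higher calls became 9751 with a filter of 2 CPM in 4 libraries, 7422 with control libraries alone and 5478 with peaks wider than 220 bases fitted alone, and the 6318 lower calls became 2618 with control libraries alone, 2655 above an absolute log2 fold change of 1 and 3938 with wider peaks alone. Leaving out 1 library gave 14919 to 17708 higher and 5393 to 7669 lower calls, and 4350 to 5450 and 3193 to 3900 among wider peaks. The share of calls that were higher went from 73.9% to 67.2% with library-size scaling, 63.7% and 61.0% with loess offsets on abundance and GC content, and 58.2% with wider peaks alone. In control cells the 11489 higher calls became 7422 with control libraries alone and 3996 with wider peaks (3733 to 11516 without 1 library, with 3733, 6656 and 5054 without the first or second spleen control or the first lung control), and the 3428 lower calls ranged from 1226, without the first spleen control, to 5099. In Vps34-deficient cells the 12095 higher calls became 3074 with wider peaks (6193 to 13036 without 1 library, with 6731 and 6193 without the first or second lung library), and the 4583 lower calls 2309 (2634 to 5777, with 2634 without the second lung library). For the difference between genotypes DESeq2 called 5 and 30 peaks, and edgeR 0 to 9 and 0 to 29 without 1 library. The 193 higher list calls became 126 with control and 103 with Vps34-deficient libraries alone and 99 above a log2 fold change of 1 (147 to 199 without 1 library), and the 133 lower ones 37 with control libraries, 32 above 1 and 83 with wider peaks (113 to 188). With promoters defined more tightly, 3.36% of higher and 5.32% of lower peaks lay at one, and among wider peaks within 1 kb 11.2% and 6.55%. AP-1 letters were found in 5.47% of higher and 8.28% of lower distal peaks within 100 bases, and within 200 bases of wider ones in 17.5% and 15.1%. With the replicate number as a block within genotype, 14494 peaks were higher and 4926 lower, but same-numbered libraries did not deviate together (r from -0.01 to 0.04), so they share only a number. Of 120 named peaks called, 110 were called in all 10 fits without 1 library, and no named peak reversed. The cause of these shifts was not tested.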
